A study of Mus musculus with 304 samples.

Results

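Among dentate granule cells that had received an Id2 overexpression vector, the share of a cell's reads that came from Id2 varied widely, and the account below sets the cells with the largest Id2 share against those with the smallest. The members were chosen by that measured share: Id2 level was taken as a cell's Id2 count scaled to a total of 1000000 reads (CPM), and cells were ranked separately within titles up to IDS95 and titles from IDS101, the 2 sets into which the titles fall. The high-Id2 group pooled the 14 and 9 highest-ranking cells of the sets, the low-Id2 group the 14 and 9 lowest-ranking, and the 15 and 10 cells between them formed a middle group. These 23, 25 and 23 cells make up the 71 passed Id2_OE cells with a column, of 291 cells with a column in the series. Both sides of the comparison are Id2_OE cells, and 59 passed GFP_Control cells served as the level without the transgene.

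The series applied Patch-seq, in which the patch pipette takes up the cytosol of 1 cell for 1 sequencing library, to granule cells of the mouse dentate gyrus. Id2_OE and GFP_Control cells were collected 1 month after injection of an adeno-associated virus (AAV) that carried Id2 or GFP, so the low-Id2 and GFP cells had received a virus too. Strain, age, promoter and viral titre were not given in the sources used here. No label names an animal, so each group stands as 1 sample, no p-value or standard error was made from cells, and the verbs and counts of genes past a fold below describe sums and cells of these libraries only.

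Id2 is an inhibitor of DNA binding. It has the helix-loop-helix part through which basic helix-loop-helix transcription factors pair, but lacks the basic stretch that contacts DNA, so it holds E proteins such as Tcf3, Tcf4 and Tcf12 in pairs that cannot bind the E-box of their target promoters. The interferon-stimulated genes that appear below form the transcriptional response to type I interferon, in which Stat2 and Irf9 carry the signal to a GAAA-rich element in their promoters.

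Median depth was alike in the high-Id2 and low-Id2 libraries, but the deepest libraries were of high-Id2 cells. IDS31, IDS35 and IDS43 held 11676427, 11524262 and 8643136 reads outside Id2, more than any low-Id2 cell. These cells weigh most in the summed levels of the high-Id2 group. Reads outside Id2 were 735764 to 11676427 per cell in high-Id2 cells (median 3219939) and 1505979 to 5886439 in low-Id2 cells (median 3045019), and the median number of genes with a read was 3561 and 3641. Summed over a group, 95385872 reads of high-Id2 cells and 73729630 of low-Id2 cells stood behind each level, and Poisson intervals on such sums cover counting error of reads only. Of 20 granule cell marker genes 17 were measured and summed to 4463 CPM in high-Id2 cells and 3593 CPM in low-Id2 cells, against 5218 CPM in GFP cells. Prox1, the transcription factor that marks granule cells, had a read in 17 of 23 high-Id2 and 15 of 23 low-Id2 cells, Calb1, which encodes the calcium buffer calbindin, in 23 and 19, and Dsp, a desmosome gene used as a granule marker, in none of either. The lowest cells of the low-Id2 group, IDS72 and IDS67, summed to 7.45 and 10.7 CPM of granule markers, against 1904 CPM in the lowest high-Id2 cell. They held 5424 and 4946 CPM of microglia markers and 1514 and 2250 CPM of endothelial and mural markers. IDS67 was also the cell with the highest mitochondrial sum, 270593 CPM.

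Id2 itself, which chose the groups and is given as a description, lay between 1446 and 20672 CPM in low-Id2 cells (median 12717), between 16323 and 45153 CPM in middle cells (median 26811) and between 30896 and 105869 CPM in high-Id2 cells (median 56139). Summed over the cells it made up 6.21% of the reads of the high-Id2 group and 1.08% of those of the low-Id2 group. GFP cells reached at most 575 CPM of Id2, with a median of 0.17 CPM, so every low-Id2 cell stood above every GFP cell. The edges of the groups were close. In titles up to IDS95 the lowest high-Id2 cell had 47170 CPM and the highest middle cell 45153 CPM, and the lowest middle cell had 23959 CPM against 20672 CPM in the highest low-Id2 cell. In titles from IDS101 the same 4 values were 30896, 28752, 16323 and 14960 CPM, so some high-Id2 cells of that set carried less Id2 than middle cells of the other. Id2 was left out of all totals from here on, since its own reads would lower every other CPM.

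The Id2 level moved with the number in a cell's title. In titles up to IDS95 the 22 cells from IDS26 to IDS49 held 13 of the 14 high-Id2 cells and 1 low-Id2 cell, whereas the 21 cells from IDS50 to IDS73 held 1 high-Id2 cell and 13 low-Id2 cells. In titles from IDS101 the order ran the other way: the 14 cells from IDS122 to IDS140 held 2 high-Id2 and 6 low-Id2 cells, and the 14 from IDS141 to IDS158 held 7 and 3. Across cells, Spearman's rho between Id2 level and title number was -0.66 over 43 cells and 0.52 over 28 cells. The labels do not say what a title number stands for (an animal, a slice, a day or a plate), so in the comparison of high with low Id2 the transgene level and whatever the title order stands for cannot be told apart. The main results below are therefore also given for a second ranking, chosen after this was seen, in which the highest and lowest cells were taken within each of these 4 blocks of title numbers (22 high-Id2 against 22 low-Id2 cells).

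**Figure D1:**
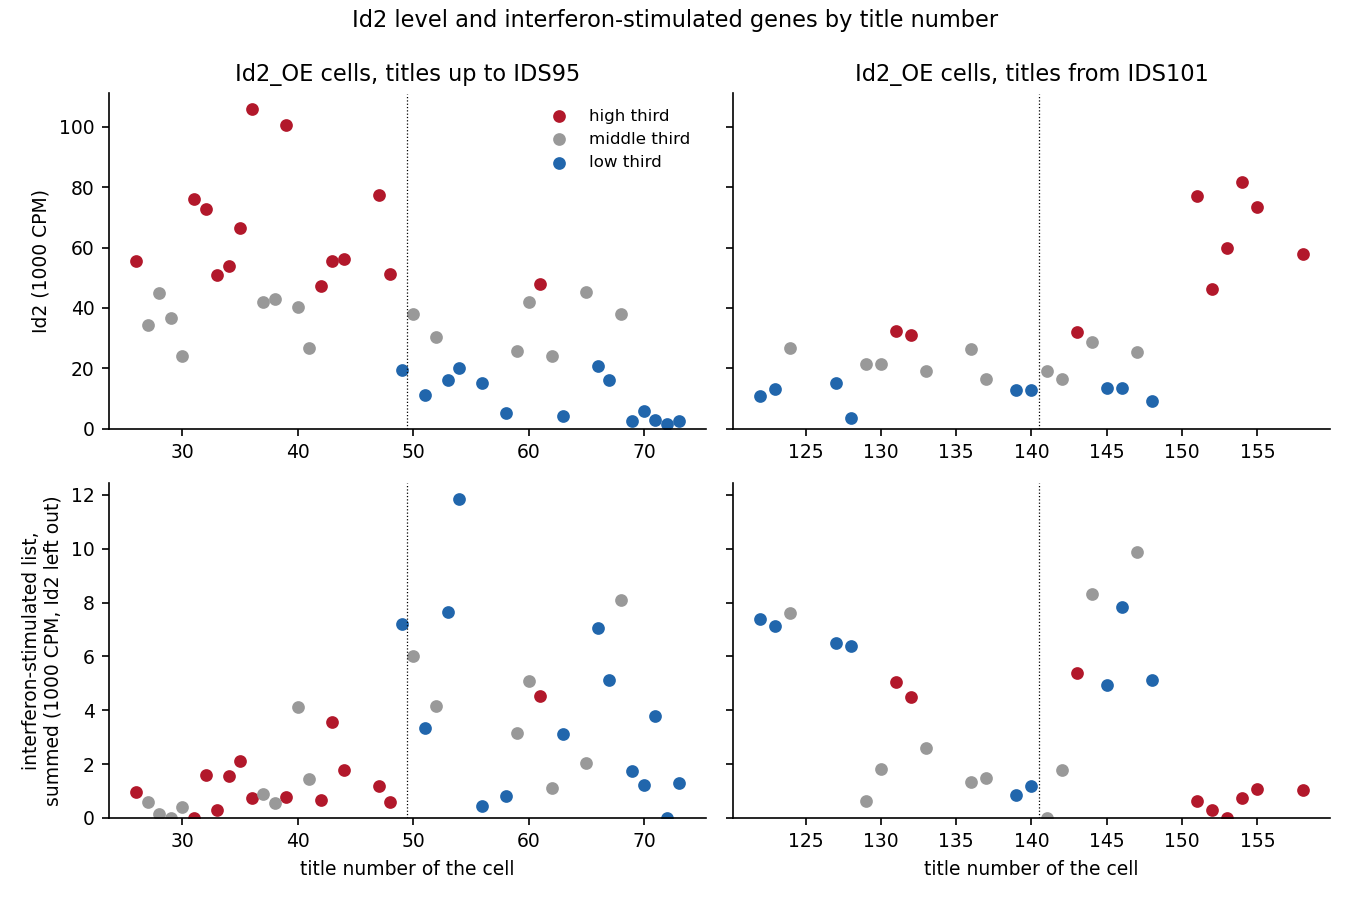
Each point is 1 Id2_OE cell, placed by the number in its title, with titles up to IDS95 in the left panels and titles from IDS101 in the right panels, and coloured by its Id2 group. The upper panels plot Id2 in units of 1000 CPM and the lower panels the summed interferon-stimulated genes in units of 1000 CPM, and the dotted lines split each set into the blocks of 22, 21, 14 and 14 cells. The blocks with most of the high-Id2 cells are those with the lower medians of interferon-stimulated genes, 815 and 1432 CPM, against 3346 and 3552 CPM in the other blocks.

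Genes of the type I interferon response stood lower in high-Id2 cells than in low-Id2 cells. The 49 genes of the list with a row summed to 1772 CPM over the high-Id2 group, against 4482 CPM over the low-Id2 group. By cell, the sum ran from 0.17 to 5381 CPM in high-Id2 cells (median 1019 CPM) and from 2.29 to 11858 CPM in low-Id2 cells (median 4950 CPM). The groups overlapped over much of their range, with the median of the low-Id2 group close to the top of the high-Id2 group. At any level, 38 of the 49 genes were lower in high-Id2 cells and 10 were higher, and 1 had no read in either, where 55.7% of all 16338 genes with a read were lower. In both title sets 25 of the 49 were lower and 1 was higher, where 21.7% of all genes with a read were lower in both.

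A gene was counted as measured where at least 20% of the cells of the high-Id2 or the low-Id2 group had a read and 1 of these groups reached 5 CPM. It was counted as called where its summed CPM, after adding 1, differed at least 2-fold with the same sign in each title set. Of 7837 measured genes 1057 were called higher in high-Id2 cells (13.5%) and 1426 lower (18.2%), and 875 were measured only through the high-Id2 group and 1416 only through the low-Id2 group. Of the interferon list 24 genes were measured, of which 15 were called lower and 1 higher, with a median log2 ratio of -1.83 against -0.09 over all measured genes. That count favours the low side by construction, since 16 of the 24 were measured only through the low-Id2 group. Of the 8 that were measured in both groups, 4 were called lower and 1 higher.

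Among the factors that relay the signal, Stat2 ran from 0 to 67.7 CPM in high-Id2 cells, with a read in 6 of 23, and from 0 to 1654 CPM in low-Id2 cells, with a read in 16 of 23. Its summed level was 5.38 CPM (95% Poisson interval 4.92 to 5.86) in high-Id2 cells and 297 CPM (293 to 301) in low-Id2 cells, and the log2 ratio was -4.44 and -6.56 in the 2 title sets. Both groups held cells with no read, and no high-Id2 cell came near the upper cells of the low-Id2 group. Irf9, the DNA-binding partner of Stat2, had summed levels of 91.3 CPM in high-Id2 and 252 CPM in low-Id2 cells, with medians by cell of 0 and 82.8 CPM. Irf2, which binds the same promoter element as a repressor and is on no list here, was among the 12 lowest genes by the rule below, at 1.78 CPM summed over high-Id2 cells and 131 CPM over low-Id2 cells, with a read in 4 and 12 cells. By cell it ran from 0 to 60.4 CPM in high-Id2 cells and from 0 to 3840 CPM (median 2.80) in low-Id2 cells. Its low-Id2 sum thus rests largely on a single library, and its log2 ratios in the title sets were -7.61 and -1.10.

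Among the induced effectors, Ifit1, which binds viral RNA that lacks a host cap, had a read in 9 of 23 high-Id2 cells and 17 of 23 low-Id2 cells. By cell it ran from 0 to 2368 CPM (median 0) in high-Id2 cells and from 0 to 5366 CPM (median 338) in low-Id2 cells, and its summed levels were 269.5 and 973 CPM. The high-Id2 cells with Ifit1 reads lay inside the range of the low-Id2 cells. In shares, Ifit1 was read in 39.1% of high-Id2 cells (exact 95% interval 19.7 to 61.5%) and 73.9% of low-Id2 cells (51.6 to 89.8%), and in 31.8% and 65.2% after cells were thinned to 750000 reads. Uba7, which activates the ubiquitin-like protein Isg15, had a read in 2 high-Id2 and 10 low-Id2 cells (8.89 and 202 CPM), and Usp18, which removes Isg15 and dampens the receptor, in 4 and 7 (27.1 and 149 CPM). Bst2, which tethers virus particles to the membrane, had no read in high-Id2 cells and reads in 6 low-Id2 cells, where it summed to 110 CPM. Oasl2, of the oligoadenylate synthetase family, likewise had 0 reads against reads in 5 low-Id2 cells (118.5 CPM), and Ifih1, a sensor of double-stranded RNA, 0 against reads in 6 (25.5 CPM). Against a floor of 3 counts over the high-Id2 group these levels were at least 3505-fold, 3768-fold and 809-fold lower. In titles up to IDS95 and titles from IDS101 the log2 ratios were -5.75 and -7.74 for Bst2. They were -1.31 and -8.36 for Oasl2 and -1.10 and -6.13 for Ifih1, so most of the difference in Oasl2 and Ifih1 came from titles from IDS101. These genes were measured only through the low-Id2 group, where the median cell had no read of them. Their highest low-Id2 cells reached 1386, 1574 and 716 CPM, so the sums rest on few libraries. A share of 0 of 23 cells has an exact Clopper-Pearson upper limit of 14.8%. Lgals3bp, a secreted binding protein of galectins, was the member called higher, at 178 CPM in high-Id2 and 74.4 CPM in low-Id2 cells.

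Across the whole dose series the interferon list did not follow Id2 in order. Summed levels were 145 CPM in GFP cells, 4482 CPM in low-Id2, 3126 CPM in middle and 1772 CPM in high-Id2 cells. At any level, 27 of the 48 genes with a read in an Id2 group were lower in GFP cells than in both groups (56.2%), where 20.03% of all genes with such a read were. Summed over the list, the low-Id2 group stood farthest from the GFP cells, and high-Id2 cells lay between. Ifit1 repeated this order with 0.131 CPM in GFP, 973 in low-Id2, 448 in middle and 269.5 in high-Id2 cells.

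**Figure D2:**
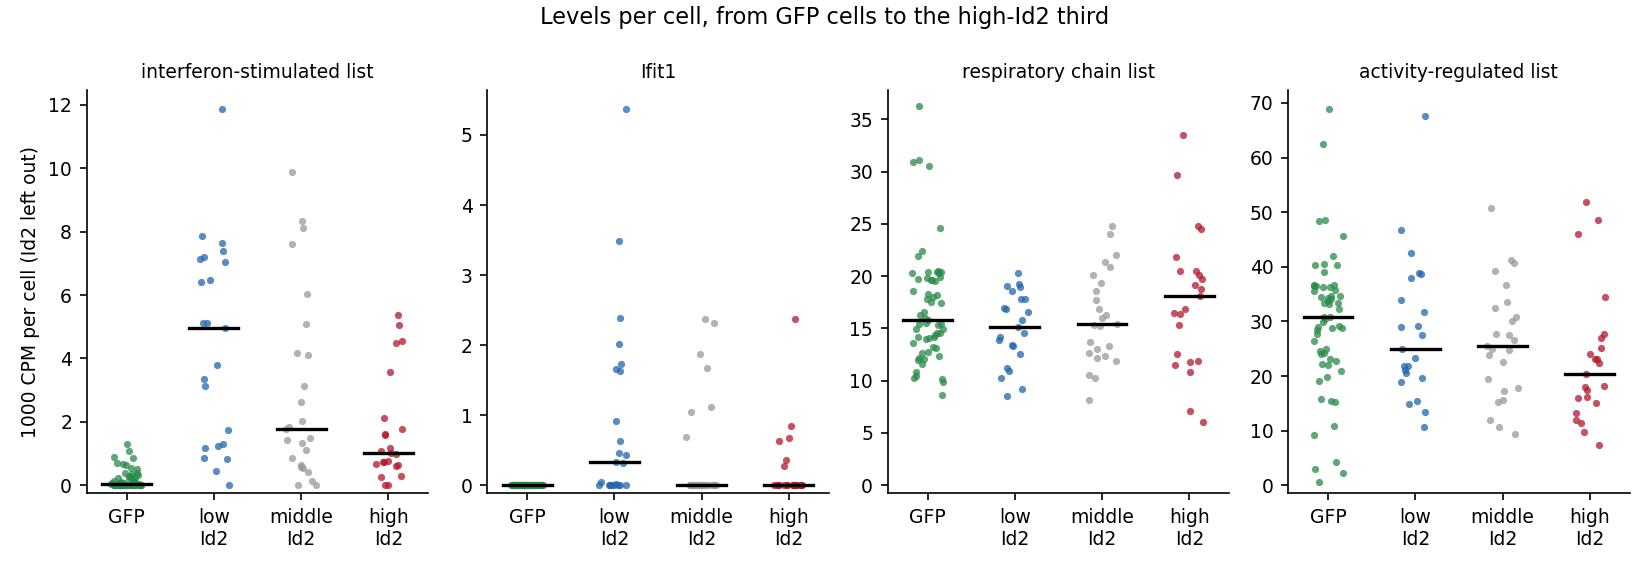
Points are single cells and lines are medians, in units of 1000 CPM without Id2, for the summed interferon-stimulated list, Ifit1, the summed respiratory chain list and the summed activity-regulated list, from GFP cells through low-Id2 and middle to high-Id2 cells. The interferon medians are 28.3 CPM in GFP, 4950 in low-Id2, 1790 in middle and 1019 in high-Id2 cells. The respiratory chain and activity-regulated lists overlap across all 4 groups.

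Within the blocks of title numbers the difference in interferon-stimulated genes was not seen in the same way. With cells ranked inside each block, 25 of the 49 genes were lower in high-Id2 cells and 22 were higher, beside 48.9% lower among all genes with a read, and the list summed to 2639 CPM in high-Id2 and 3056 CPM in low-Id2 cells. Block by block, the summed levels were 1115 CPM in high-Id2 and 2817 CPM in low-Id2 cells for IDS26 to IDS49, 4818 and 1879 CPM for IDS50 to IDS73, 5050 and 4710 CPM for IDS122 to IDS140, and 514 and 4640 CPM for IDS141 to IDS158. Medians by cell were 1186 CPM in high-Id2 and 868 CPM in low-Id2 cells in the first of these blocks, where the highest low-Id2 cell reached 7193 CPM, and over the blocks together they were 1902 and 1592 CPM. The high-Id2 group was higher in the second block by either measure, the sums nearly met in the third, and only in the last did the groups by cell not overlap (9.49 to 1073 CPM in high-Id2, 1790 to 7850 CPM in low-Id2 cells, 4 cells each). Spearman's rho between Id2 and the interferon sum was 0.09, 0.52, -0.05 and -0.48 in the 4 blocks. Ifit1 changed sign under this ranking, with a log2 ratio of 0.84. Irf7, the master inducer of interferon genes, stood at 1.99 and Lgals3bp at 1.32. Over the 18 alternatives of the closing section Irf7 ran from -0.62 to 1.99, so its direction was not kept. Stat2 (-1.03), Irf9 (-0.63), Uba7 (-1.13), Bst2 (-1.17) and Rsad2 (-3.05), an antiviral radical enzyme, stayed below 0. So did Oasl2 (-0.85) and Usp18 (-0.48), while Ifih1 stood at -0.04.

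The promoters of interferon-stimulated genes were searched on both strands for GAAA, 2 bases of any kind and GAAA again, the core of the element that Irf9 binds with Stat2, a motif chosen after the values of these genes were seen. Windows ran from 250 bases before to 50 bases after the start, from RefSeq on GRCm38.p6. Of 37 listed genes with a promoter 16 held the motif (43.2%), as did 6 of 13 of those called lower (46.2%). It was held by 3.49% of all 27025 promoters, 2.82% of all measured genes and 3.85% of all genes called lower. The list was made of interferon-responsive genes, so its excess over all promoters follows from that choice and is no result about Id2 level. Members called lower held the motif about as often as the whole list. The 4 promoters below are of list members that were called lower and hold the motif, which is in capitals in either orientation.
Ifit1, chr19:34640639-34640938, plus strand: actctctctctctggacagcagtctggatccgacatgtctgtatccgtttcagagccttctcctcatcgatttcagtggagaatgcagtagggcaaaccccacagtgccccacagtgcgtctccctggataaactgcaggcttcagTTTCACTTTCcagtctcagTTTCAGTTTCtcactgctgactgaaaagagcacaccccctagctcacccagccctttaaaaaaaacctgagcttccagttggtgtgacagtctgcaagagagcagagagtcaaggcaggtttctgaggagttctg
Stat2, chr10:128270248-128270547, plus strand: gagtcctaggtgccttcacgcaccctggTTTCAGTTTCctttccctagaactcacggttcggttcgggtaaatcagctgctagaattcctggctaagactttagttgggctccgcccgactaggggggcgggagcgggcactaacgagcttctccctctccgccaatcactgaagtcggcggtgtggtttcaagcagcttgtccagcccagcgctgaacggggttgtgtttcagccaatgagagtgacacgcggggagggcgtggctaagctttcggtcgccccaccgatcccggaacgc
Bst2, chr8:71537423-71537722, minus strand: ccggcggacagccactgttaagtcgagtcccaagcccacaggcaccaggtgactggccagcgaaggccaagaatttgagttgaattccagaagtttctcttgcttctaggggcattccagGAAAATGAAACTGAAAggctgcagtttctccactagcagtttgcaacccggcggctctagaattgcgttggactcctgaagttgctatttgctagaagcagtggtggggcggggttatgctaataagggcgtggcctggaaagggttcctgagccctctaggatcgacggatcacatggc
Rsad2, chr12:26456403-26456702, minus strand: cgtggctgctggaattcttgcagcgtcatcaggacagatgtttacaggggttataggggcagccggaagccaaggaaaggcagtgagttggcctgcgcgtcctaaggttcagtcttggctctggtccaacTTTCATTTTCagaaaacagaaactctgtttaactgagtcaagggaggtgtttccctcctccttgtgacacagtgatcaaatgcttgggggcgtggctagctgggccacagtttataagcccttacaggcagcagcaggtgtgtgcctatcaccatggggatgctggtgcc
Ifit1 has 2 such matches, Stat2 and Rsad2 have 1 each and Bst2 has 2 that overlap, all upstream of the start. A match is a stretch of letters and not a measured binding site.

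Genes of MHC class I antigen presentation, many of which interferon also induces, gave a mixed picture. Of 17 listed genes 12 were measured, 5 were called lower in high-Id2 cells (41.7%, where 18.2% of all measured genes were) and 1 higher, with a median log2 ratio of -0.43. Of the 12, 4 were measured only through the low-Id2 group and 1 only through the high-Id2 group. Of the 7 measured in both groups, 2 were called lower and 1 higher. At any level 10 of the 17 were lower and 7 higher, where 55.7% of all genes with a read were lower. Tap1, a subunit of the peptide transporter, had no read in high-Id2 cells and reads in 5 low-Id2 cells. H2-D1, a class I heavy chain, had a read in 6 high-Id2 and 12 low-Id2 cells, with 67.6 and 477 CPM. B2m, the invariant light chain, summed to 137 CPM in high-Id2 and 234 CPM in low-Id2 cells and was not called. Within title blocks the list's median was 0.16, with H2-D1 at 0.41 and B2m at 1.29, and Tapbp, the chaperone that loads peptides, at 0.84 against -2.16 in the main ranking.

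Nuclear genes of the mitochondrial respiratory chain stood somewhat higher in high-Id2 cells. All 76 listed genes were measured, 55 were higher and 21 lower in high-Id2 cells, where 47.5% of all measured genes were higher, and 34 were higher in both title sets, where 23.8% were. The list summed to 19487 CPM in high-Id2 and 15219 CPM in low-Id2 cells, and by cell it ran from 6020 to 33517 CPM (median 18090) in high-Id2 cells and from 8530 to 20265 CPM (median 15159) in low-Id2 cells. The ranges overlapped nearly throughout. Of the 76, 8 were called higher (10.5%, below the 13.5% of all measured genes) and 2 lower (2.63%, where 18.2% were). The median log2 ratio was 0.40, with 0.38 and 0.49 in the title sets and 0.34 within title blocks, where 54 of the 76 were higher. By block the medians were 0.24, 0.08, 0.01 and 0.74.

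The ratio also rose with a gene's level up to 500 CPM. Over all 813 genes at 200 to 500 CPM the median was 0.18 and 57.4% were higher in high-Id2 cells. Over the 28 respiratory genes of that range it was 0.44 with 21 higher. At 100 to 200 CPM it was 0.07 with 52.8% higher over 1659 genes, and 0.30 with 17 higher over 28 respiratory genes. At 50 to 100 CPM it was -0.14 with 45.5% higher over 2185 genes, and 0.27 with 11 higher over 14 respiratory genes. GFP cells summed to 16854 CPM of the list, between the low-Id2 and high-Id2 cells. Ndufb9, a subunit of complex I, was the member with the largest ratio. It ran from 0 to 1245 CPM (median 331) in high-Id2 cells and from 0 to 530 CPM (median 66.3) in low-Id2 cells, with summed levels of 442 and 120 CPM and log2 ratios of 1.76 and 1.98 in the title sets. GFP cells held 193 CPM of it. Ndufa9 (257 and 71.6 CPM), Ndufb7 (143 and 46.4 CPM) and Ndufb3 (123.6 and 41.5 CPM), complex I subunits too, were also called higher.

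The 14 measured genes of the mitochondrial genome went the other way in summed counts, at 4289 CPM in high-Id2 and 18878 CPM in low-Id2 cells. By cell the medians were 2963 CPM in high-Id2 and 3037 CPM in low-Id2 cells, and 1 low-Id2 cell alone reached 270593 CPM. Without that cell the mitochondrial list's median log2 ratio was -0.68, the interferon list's -1.91 and the respiratory list's 0.44. Within title blocks the list's median log2 ratio was 1.76, against -2.15 in the main ranking, so its direction was not kept. A single cell weighs on that value too, since 1 high-Id2 cell of IDS50 to IDS73 reached 124663 CPM. Over the blocks together the medians by cell were 3260 CPM in high-Id2 and 2947 CPM in low-Id2 cells. By block the list's median log2 ratios were 0.50, 3.09, -1.08 and 0.19.

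Of the partners of Id2, Tcf4 was the one read in nearly all cells, in 21 of 23 of either group. It ran from 0 to 2832 CPM (median 816) in high-Id2 cells and from 0 to 2162 CPM (median 758) in low-Id2 cells, and its summed levels of 710 and 794 CPM stood near the 799 CPM of GFP cells. Tcf12 was called higher, with reads in 11 high-Id2 and 5 low-Id2 cells and summed levels of 61.2 and 6.44 CPM, log2 ratios of 2.98 and 3.37 in the title sets, and 34.6 CPM in GFP cells. Within title blocks its log2 ratio was 1.42. Tcf3 had a read in 1 high-Id2 and 6 low-Id2 cells (0.126 and 29.4 CPM), but nearly all of that difference came from titles from IDS101 (-5.84, against -0.06 in the other set). The highest low-Id2 cell reached 877 CPM of Tcf3 and the median one had no read, so the sum rests largely on a single library. The related inhibitors were hardly read: Id1 had a read in 2 high-Id2 cells and 1 low-Id2 cell, and Id3 and Id4 in no cell of either group.

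Over the whole list of Id proteins and helix-loop-helix factors 24 of 41 genes were measured, and the median log2 ratio was -0.12, near that of all genes. Of the 24, 2 were called higher (8.33%) and 8 lower (33.3%), where 13.5% and 18.2% of all measured genes were. However, 7 were measured only through the low-Id2 group and 3 only through the high-Id2 group. Of the 14 measured in both groups, 3 were called lower and 1 higher. Arnt, the partner of hypoxia and dioxin receptor factors, stood at 1.96 CPM in high-Id2 and 131 CPM in low-Id2 cells, with reads in 3 and 9 cells. Arnt2, its neuronal relative, stood at 39.1 and 1.68 CPM, with reads in 7 and 5 cells and 88.9 CPM in middle cells. Mitf, a basic helix-loop-helix leucine zipper factor, had no read in high-Id2 cells and reads in 6 low-Id2 cells.

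The E-box core CANNTG, which E proteins bind and which reads the same on both strands, was found in the promoters of 60.4% of the genes called higher and 59.5% of those called lower, against 60.7% of all measured genes and 72.1% of all promoters. The genes called at high Id2 dose therefore carried the motif about as often as any measured gene. The promoters shown are those of the first 2 genes called higher by the rule for named genes, Zfp266 and Hspbp1, and of Tbcd and Irf2, which follow Asun among those called lower, with the motif in capitals where present.
Zfp266, chr9:20521370-20521669, minus strand: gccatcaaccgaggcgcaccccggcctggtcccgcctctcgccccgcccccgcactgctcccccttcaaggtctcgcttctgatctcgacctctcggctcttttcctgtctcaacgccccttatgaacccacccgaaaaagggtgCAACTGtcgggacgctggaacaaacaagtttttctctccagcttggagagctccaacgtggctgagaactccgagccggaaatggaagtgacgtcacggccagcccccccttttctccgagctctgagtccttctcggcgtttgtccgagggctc
Hspbp1, chr7:4684932-4685231, minus strand: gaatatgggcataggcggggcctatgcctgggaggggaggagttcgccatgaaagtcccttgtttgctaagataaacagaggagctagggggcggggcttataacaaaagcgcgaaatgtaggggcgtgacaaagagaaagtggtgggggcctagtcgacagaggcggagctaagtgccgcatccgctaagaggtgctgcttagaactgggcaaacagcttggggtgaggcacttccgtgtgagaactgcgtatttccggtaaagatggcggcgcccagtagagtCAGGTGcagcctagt
Tbcd, chr11:121451741-121452040, plus strand: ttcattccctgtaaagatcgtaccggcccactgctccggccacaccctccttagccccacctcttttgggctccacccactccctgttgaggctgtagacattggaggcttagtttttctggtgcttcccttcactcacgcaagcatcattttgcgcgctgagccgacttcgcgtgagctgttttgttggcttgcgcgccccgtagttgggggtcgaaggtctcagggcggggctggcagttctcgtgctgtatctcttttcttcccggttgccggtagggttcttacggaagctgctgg
Irf2, chr8:46739495-46739794, plus strand: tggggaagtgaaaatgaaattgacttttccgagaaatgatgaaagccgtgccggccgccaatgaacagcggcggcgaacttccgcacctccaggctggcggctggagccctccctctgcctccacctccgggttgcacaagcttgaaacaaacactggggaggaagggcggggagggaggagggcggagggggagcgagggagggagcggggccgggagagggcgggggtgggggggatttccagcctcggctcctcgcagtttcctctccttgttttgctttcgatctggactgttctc
Zfp266 has 1 match upstream of the start, Hspbp1 has 1 that begins 35 bases after it, and Tbcd and Irf2 have none in these windows.

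The 12 genes that stood highest in high-Id2 cells, by the smallest of 3 ratios (summed, mean over cells, thinned cells), were Zfp266, Hspbp1, Golga7b, Rnf208, Gopc, Myh7b, Uqcc3, Simc1, Npat, Zscan26, Ccdc157 and Npas4. Zfp266, a zinc finger protein, ran from 0 to 1424 CPM with a read in 11 of 23 high-Id2 cells and from 0 to 19.4 CPM with a read in 3 of 23 low-Id2 cells, and summed to 167 and 1.74 CPM. Hspbp1, a co-factor of the chaperone Hsp70, had a read in 9 and 2 cells (259.6 and 8.02 CPM), and Uqcc3, an assembly factor of respiratory complex III, in 9 and 2 cells (135 and 8.15 CPM). The median cell of either group had no read of Zfp266, Hspbp1 or Uqcc3, so each of these differences rests on a part of the cells. Npas4, a transcription factor induced by neuronal activity, had a read in 12 high-Id2 and 9 low-Id2 cells (331 and 27.97 CPM) and 170 CPM in GFP cells.

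The 12 lowest were Asun, Tbcd, Irf2, Stat2, Zbtb4, Anp32e, Abhd2, Slx1b, Ikzf4, Tmem135, Znrd1 and Snx10. Asun, a regulator of dynein in dividing cells and part of the Integrator complex, had a read in 1 high-Id2 and 11 low-Id2 cells, with 0.776 and 184 CPM, and Tbcd, a folding factor of tubulin, likewise in 1 and 11, with 0.503 and 177 CPM. Anp32e, a chaperone of the histone H2A.Z, had a read in 7 and 13 cells (3.49 and 149 CPM). These are the genes picked for the largest separation. Most high-Id2 cells had no read of them, except for Slx1b, which had a read in 14 of 23 high-Id2 cells. GFP cells lay between the groups for Asun (41.1 CPM) and Tbcd (41.8 CPM). When cells were ranked within title blocks, which kept 14 of the 23 high-Id2 and 15 of the 23 low-Id2 cells in their groups, the ratios of several named genes came closer to 0. Gopc stood at 0.74 there, against 3.97 in the main ranking, Ccdc157 at 0.59 against 3.57, and Arnt2 at 0.19 against 3.90. Of all 3479 measured genes at least 2-fold apart in summed counts, 85.7% kept their sign under that ranking and 59.6% kept it and were still at least 2-fold apart, so a kept sign is usual between rankings that share most cells.

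Across all measured genes the title sets, which share no cell, hardly repeated each other. The Pearson correlation of their log2 ratios over 7837 genes was 0.03 and Spearman's rho 0.04, and 51.7% of genes had the same sign in both. Of the 1965 genes at least 2-fold higher in titles up to IDS95, 48.9% were higher in titles from IDS101, where 48.1% of all genes were, and of the 2380 at least 2-fold lower 53.7% were lower there, where 51.7% of all were. Called genes had to share a sign by rule, so their agreement is no result.

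**Figure D3:**
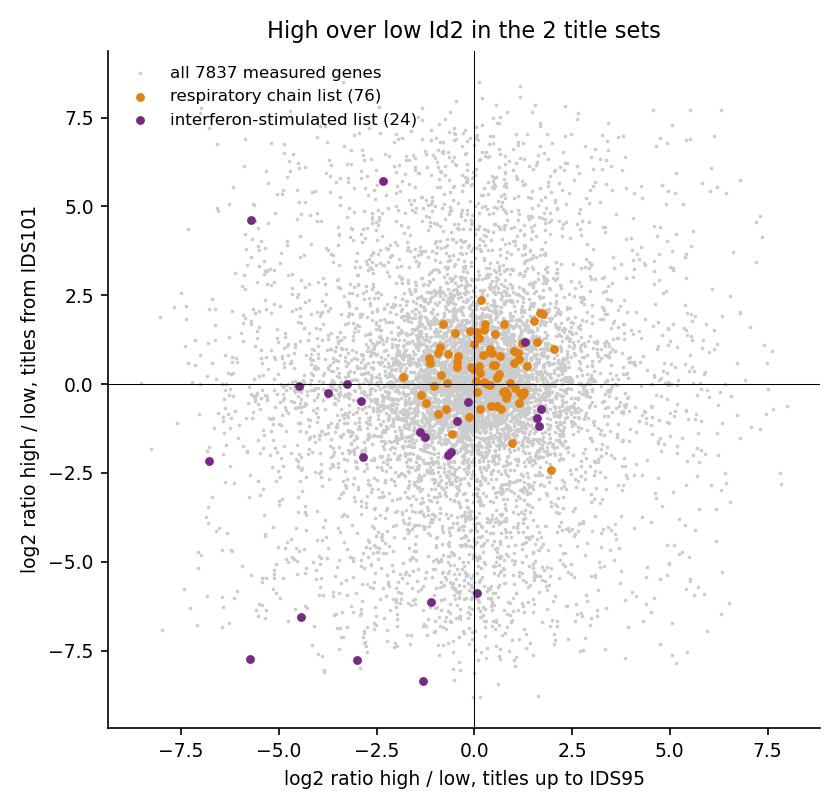
Each point is 1 of the 7837 measured genes, placed by its log2 ratio of high-Id2 over low-Id2 cells in titles up to IDS95 (horizontal) and in titles from IDS101 (vertical). The cloud shows no tilt (Pearson 0.03), the 24 measured interferon-stimulated genes, of which 16 were measured only through the low-Id2 group, lie mostly in the lower left, and the 76 respiratory chain genes sit near the centre with 34 higher in both.

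Genes induced by neuronal activity stood a little lower. Of 49 genes 43 were measured, and 32 were lower (74.4%, where 52.5% of all measured genes were) and 11 higher. Called lower were 10 (23.3%, where 18.2% of all were) and called higher 1, Npas4, and 10 of the 43 were measured only through the low-Id2 group and none only through the high-Id2 group. The list summed to 23625 CPM in high-Id2 and 29334 CPM in low-Id2 cells, against 30163 CPM in GFP cells. By cell it ran from 7409 to 51877 CPM in high-Id2 and from 10674 to 67623 CPM in low-Id2 cells, so the groups overlapped almost fully. The median log2 ratio was -0.42, with -0.81 and -0.08 in the title sets and -0.35 within title blocks. Bdnf, the neurotrophin, had summed levels of 353.9 and 965 CPM but nearly equal medians by cell, 511 in high-Id2 and 514 in low-Id2 cells. Fos, an immediate early transcription factor, summed to 2103 and 2498 CPM and Arc, which traffics glutamate receptors, to 1148 and 1521 CPM, and neither was called. Sik1, a kinase of the CREB pathway, had a read in 7 high-Id2 and 15 low-Id2 cells (0.231 and 28.7 CPM), Nptx2, a secreted pentraxin of excitatory synapses, in 1 and 5 (0.0419 and 31.2 CPM), and Pim1, a kinase, in 0 and 5.

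Ion channel and receptor lists held single genes whose summed levels stood apart between the groups. Of 61 measured potassium, sodium, calcium and HCN channel genes 4 were called higher (6.56%) and 14 lower (22.95%), where 13.5% and 18.2% of all measured genes were. Of these 61, 4 were measured only through the high-Id2 group and 12 only through the low-Id2 group. The list had a median log2 ratio of -0.39 from summed counts and -0.01 from the mean over cells. Kcna4, a fast-inactivating potassium channel, had a read in 2 high-Id2 and 8 low-Id2 cells (5.21 and 116.3 CPM), and Hcn2, a hyperpolarization-activated channel, in 6 and 1 (24.7 and 0.244 CPM). Of 21 measured glutamate receptor genes 2 were called higher (9.52%) and 6 lower (28.6%). Of these 21, 4 were measured only through the high-Id2 group and 3 only through the low-Id2 group. Of the 14 measured in both groups, 3 were called lower and 0 higher. The higher calls thus lie among genes measured only through the group where they are high. Gria4, an AMPA receptor subunit, had reads in 5 high-Id2 cells (120.6 CPM) and in no low-Id2 cell, and Grm2, a presynaptic metabotropic receptor of granule cells, had reads in 6 and 2 (28.2 and 0.0678 CPM). In GFP cells Grm2 reached 218 CPM with a read in 33 of 59 cells, and Trpc6, a cation channel on the granule marker list, 175 CPM with a read in 23, whereas Trpc6 had a read in 2 high-Id2 and 6 low-Id2 cells (0.0210 and 98.4 CPM).

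The lists that follow gave shares of calls that are to be read against 13.5% higher and 18.2% lower over all measured genes. For axons and adhesion, the axon guidance list had 6 called higher and 5 lower of 34 measured, synaptic adhesion 8 and 12 of 52, and axon growth and neuronal immaturity 3 and 4 of 32, with median log2 ratios of -0.04, -0.13 and 0.10. Within these, L1cam, an adhesion molecule of growing axons, had a read in 8 high-Id2 and 7 low-Id2 cells but summed levels of 196 and 3.63 CPM, and Tubb3, the neuronal tubulin, had a read in 10 and 4 cells (252 and 9.07 CPM). Wnt4, a secreted signal, had a read in 9 and 3 cells (39.8 and 0.203 CPM), in a Wnt list with 2 called higher and 3 lower of 14. Hspa1b, an inducible Hsp70, had a read in 7 and 2 cells (38.8 and 0.0949 CPM), with 3 higher and 4 lower of 29 chaperone genes. The BMP, activin and TGF-beta list, whose pathway induces Id genes in many tissues, had 5 called in either direction of 22 measured. Vesicle release genes gave 3 and 5 of 39, GABA receptors 2 and 3 of 12, neuropeptides and granins 1 and 1 of 12, p53 targets 1 and 3 of 15, apoptosis genes 3 and 2 of 13, the integrated stress response 2 and 2 of 12, cell cycle genes 2 and 3 of 14, and cytosolic ribosomal proteins 3 and 2 of 79.

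**Figure D4:**
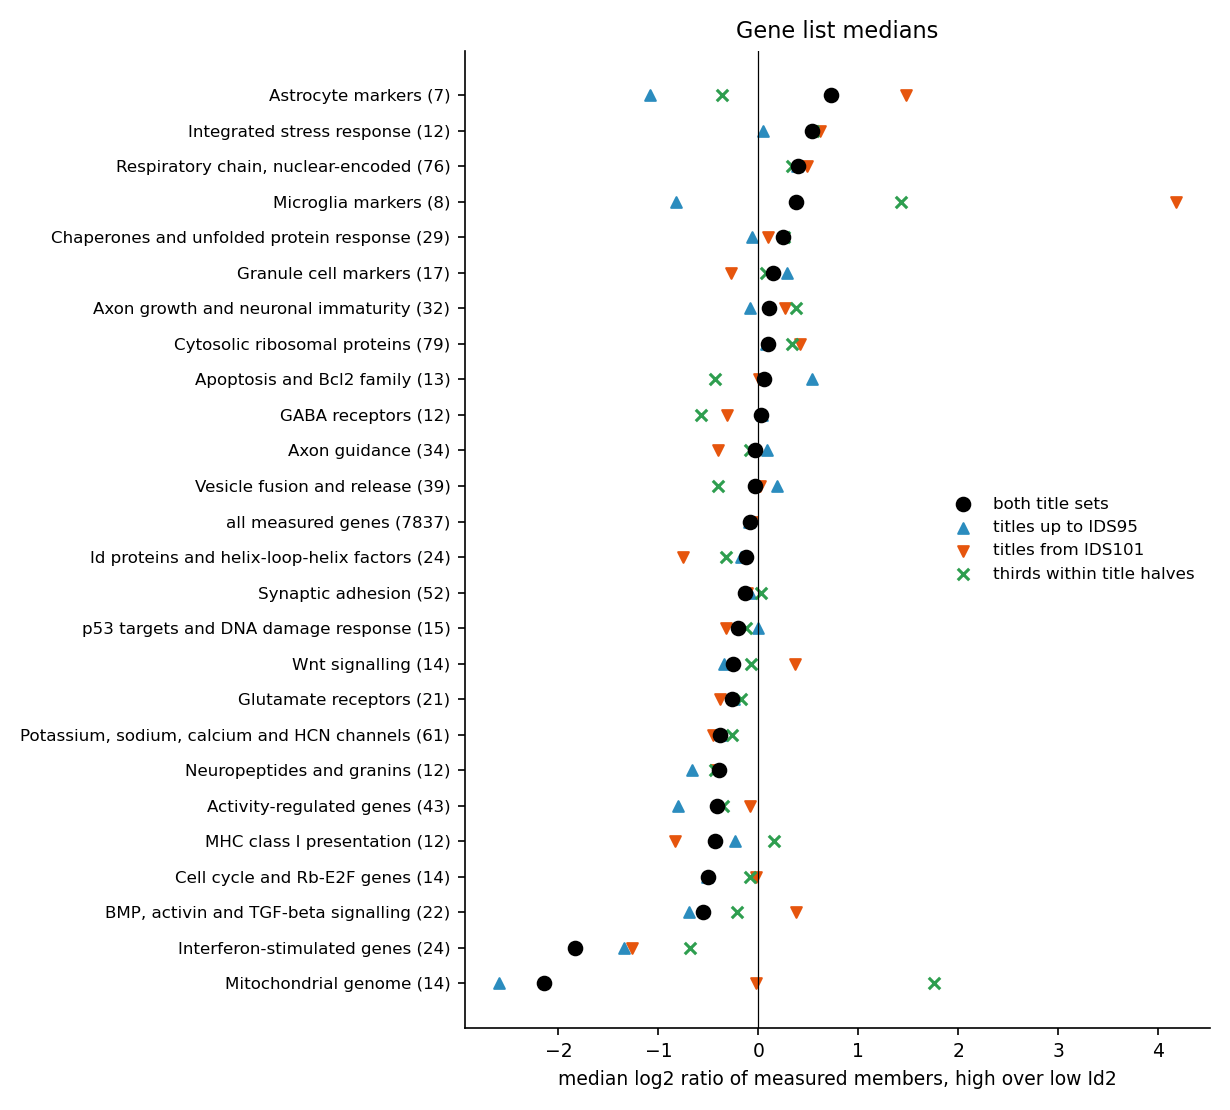
For each list with at least 7 measured members (number in parentheses), and for all measured genes, the median log2 ratio of high-Id2 over low-Id2 cells is plotted for both title sets together, for each title set and for the ranking within title blocks. Of the 25 lists 15 change side between the 4 values, among them the mitochondrial genome, MHC class I, Wnt, BMP and axon guidance lists and the microglia and astrocyte markers. The respiratory chain list lies right of 0 in all 4 (0.40, 0.38, 0.49 and 0.34). The interferon-stimulated list lies left of 0 (-1.83, -1.34, -1.27 and -0.68), but 16 of its 24 measured genes were measured only through the low-Id2 group, and within title blocks 25 of all 49 were lower and 22 higher.

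Markers of other cell types were present in both groups. Microglia markers, of which 8 of 20 were measured, summed to 671 CPM in high-Id2 and 963 CPM in low-Id2 cells, against 203 CPM in GFP cells, and ran from 0 to 5586 CPM by high-Id2 cell and from 0 to 12177 CPM by low-Id2 cell, with 6 cells of either group at 1000 CPM or more. Of the defining ones, C1qa had a read in 4 high-Id2 and 6 low-Id2 cells and Csf1r in 6 of either, and Tmem119 had none in either. Their median log2 ratio was -0.82 in titles up to IDS95 and 4.18 in titles from IDS101. Without the cells at 1000 CPM or more the interferon list's median log2 ratio was -1.90, against -1.83 with them, and the respiratory list's was 0.40 either way. Of the 24 measured interferon genes 16 were measured only through the low-Id2 group, so that median favours the low side by construction. At any level 36 of the 49 were lower and 11 higher without these cells, beside 57.1% lower among all genes with a read. Cells with fewer microglia reads stayed in both groups. Astrocyte markers summed to 769 CPM in high-Id2 and 571 CPM in low-Id2 cells, oligodendrocyte lineage markers to 149 and 368 CPM, endothelial and mural markers to 477 and 516 CPM, interneuron markers to 459 and 666 CPM, and CA pyramidal and mossy cell markers to 537 and 172 CPM. Of the CA pyramidal and mossy markers 6 were higher and 9 lower at any level, with 10 at 0 in high-Id2 and 5 at 0 in low-Id2 cells. Calb2 and Drd2, markers of mossy cells, and Gad2, which marks interneurons, had no read in either Id2 group, and Wfs1, a CA1 marker and one of the 6, had reads in 6 high-Id2 and 2 low-Id2 cells. The part of these markers, those of microglia included, in the differences was not tested.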

How the data were processed

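The authors deposited whole-number read counts per gene for 291 cells and 22800 genes, and a second table of 252 cells, treated here as a scaled signal. The table names would have it the other way round, so values decided the unit: the first table holds whole numbers only, and every column of the second is the matching count column times a constant of its own. The submitters' processing notes name Trimmomatic, STAR, featureCounts and GRCm38. For versions, the counting strand, the quality rule and those constants, methods were not given in the sources used here. Libraries were made with Nextera XT, per the labels' protocols, with no molecular identifier named, so reads are not independent molecules.

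Of 77 Id2_OE samples labelled as passed, 6 lacked a matching column and were not analysed here. Counts were summed per group and scaled to CPM without Id2, and log2 ratios were taken after adding 1 CPM, so they understate changes of low genes. Intervals are exact Poisson (levels) and exact Clopper-Pearson (shares) at 95%. Poisson intervals cover read counting error only, and neither kind covers spread between animals. Thinning to 750000 reads outside Id2 left out 1 high-Id2 cell and 4 GFP cells. Reads from overlapping or antisense genes cannot be told apart where the counting strand is unknown.

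Named genes are Id1, Id3, Id4, Tcf3, Tcf4 and Tcf12, 12 genes at either end of the ranking by the smallest of 3 ratios of 1 sign (same sign in each title set, a read in at least 40% of thinned cells of the higher group), and up to 4 members of each of 29 lists by size of ratio, with others where a result needed them. That ranking skipped ribosomal protein, mitochondrial, predicted, Riken and pseudogene entries. Fos, Arc, Bdnf, B2m, Ifit1, Irf7, Irf9, Uba7, Usp18, Rsad2 and Lgals3bp were picked after their values were seen. The members, lists and rules were chosen with earlier results of these data known. The 16 planned and 2 added alternatives are in the closing section. Python 3.11.15, NumPy 2.4.6, pandas 2.3.3, SciPy 1.17.1 and Matplotlib 3.10.9 were used.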

Additional observations from a re-analysis of the deposited data

Results flagged for a closer look

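The 16 Id2_OE cells labelled as failing quality control, which entered only the alternative that ranked them with the passed cells, carried Id2 at 47.2 to 85206 CPM with a median of 21612.6 CPM. The 7 GFP_Control cells labelled as failing reached at most 103.9 CPM, with a median of 1.09 CPM. The median Id2 signal of the failed Id2_OE cells thus stood above that of the failed GFP cells, although their lowest cell lay below the highest of those. Their summed interferon-stimulated genes ran from 0 to 9152 CPM with a median of 46.8 CPM, against 0 to 100.3 CPM with a median of 1.30 CPM in the failed GFP cells.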

How the results depend on the processing

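No paired analysis was possible because the labels give no replicate number or animal shared between high-Id2 and low-Id2 cells. Across 18 alternatives the number of genes called higher ran from 873 to 2426 and lower from 1107 to 2713. With 1 title set alone, where no second set had to agree, 2147 (titles up to IDS95) and 2426 (titles from IDS101) were higher and 2595 and 2713 lower, and with no filter on low values 2301 were lower. The share of calls that were lower, 57.4% of all called, was 48.3% with the mean over cells, 46.8% with the authors' scaled signal, 46.1% without the deepest cells and 46.7% within title blocks. The first 3 of these moved the median of all measured genes up by 0.17, 0.20 and 0.16.

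At any level, 32 to 40 of the 49 interferon-stimulated genes were lower and 7 to 15 higher under 17 alternatives, against 25 lower and 22 higher within title blocks. The median of the measured ones (-2.54 to -0.68) rests mostly on genes measured only through the low-Id2 group. The respiratory chain median, with all 76 genes measured in both groups, was 0.27 to 0.56. Of 28 lists 21 changed sign under at least 1 alternative, 15 of them with a median nearer to 0 than 0.5 in the main ranking. The other 6 were as follows. The integrated stress response gave -0.80 with no filter, -0.13 without the deepest cells, -1.31 without microglia-rich cells and -0.42 without the highest cell of each gene. Cell cycle genes gave 0.015 with no filter, 0.16 with the cells split at the middle rank and 0.00019 without the deepest cells. BMP, activin and TGF-beta genes gave 0.037 with the mean over cells, 0.10 with thinned cells, 0.046 with the scaled signal and 0.38 with titles from IDS101 alone. The mitochondrial genome gave 0.085 without microglia-rich cells and 1.76 within title blocks, and CA pyramidal and mossy cell markers -0.076 with no filter. Astrocyte markers gave -0.23 with the mean over cells, -0.10 thinned, -0.12 with the scaled signal, -1.09 with titles up to IDS95 alone, -0.59 without the deepest cells, -0.82 without microglia-rich cells, -0.27 without the highest cell and -0.36 within title blocks. Of 69 named genes 13 changed sign, of which 6 were not called, B2m (1.29 within title blocks) among them. Of the called ones, Anp32e (0.83) and Zfp266 (-0.35) changed sign with the cells split at the middle rank, Simc1 (-0.72) with both title sets ranked together, Myh7b (-0.46) without microglia-rich cells, and Ifit1 (0.84), H2-D1 (0.41) and Tapbp (0.84) within title blocks. The cause of these changes was not tested. Depth limits genes read in few cells, where a level rests on single libraries.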
